A study of Mus musculus with 11 samples.

Results

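The genes described are the mouse amino acid and peptide transporters of 8 solute carrier families, SLC1, SLC3, SLC6, SLC7, SLC15, SLC36, SLC38 and SLC43. A gene was taken when it was annotated as protein coding, carried the name of one of these families and had at least 10 counts in at least 5 of the 11 libraries. Of 66 genes with such a name among the 47131 genes of the count table, 37 met the rule, and 36 of these passed the expression filter of the differential test, which used 14840 genes. The rule used the height of the counts but not their difference between the groups. Just inside it lay Slc43a1 and Slc7a15, each with 10 counts in exactly 5 libraries, and just outside it lay Slc1a2, with 10 counts in 3 libraries and a maximum of 23 counts. Of the 29 genes left out, Slc7a12 and Slc1a7 had no count in any library.

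Amino acids enter an intestinal epithelial cell either free or as short peptides. At the luminal face, proton-coupled carriers of the SLC15 and SLC36 families and sodium-coupled carriers of the SLC1 and SLC6 families concentrate their substrates against a gradient, while peptides taken up whole are cut by cytosolic peptidases. Many SLC7 carriers are light chains that reach the membrane only when linked by a disulfide bond to one of the heavy chains Slc3a1 or Slc3a2, and they exchange one amino acid for another. SLC38 carriers import glutamine and other small neutral amino acids or act at the lysosome, where several transporters also report amino acid supply to the growth kinase mTORC1. A colonic epithelium receives less dietary amino acid than the small intestine, and peptide uptake is usually described as a property of small intestinal enterocytes.

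The libraries are poly(A)-enriched RNA-seq of organoids, epithelial cultures embedded in Matrigel, grown from the colon of C57BL/6J mice, which were female and 6 to 8 weeks old. The NAP group has 6 libraries, made after 48 h with NAP at 10 pM, and the control group has 5 libraries of organoids that received PBS according to the treatment protocol, or no treatment according to the library descriptions. The labels do not spell out NAP, mark every library as batch 1 and call the libraries biological replicates without naming the mouse or culture behind each, so that a p-value speaks only of the spread among these libraries, which may be technical. The genotype, strain and medium were shared by both groups.

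The libraries held 16546263 to 21947414 counts, so that 3 counts, the limit for a gene at 0, corresponded to 0.137 to 0.181 CPM, counts scaled to library size. All 10 absorptive colonocyte markers listed were detected in every library. The controls did not form one cluster: the summed level of these markers was 4458, 18472, 6739, 3066 and 17525 CPM in controls 1 to 5 and 8153 to 11311 CPM in the NAP libraries, and that of 8 intestinal stem cell markers was 1545, 167, 727, 1988 and 164 CPM against 313 to 664 CPM. Controls 2 and 5 were thus high in colonocyte and low in stem cell markers, controls 1 and 4 the reverse, and the NAP libraries lay between. The 10 small intestinal enterocyte markers summed to 344, 745, 497, 293 and 750 CPM in the controls and 490 to 811 CPM in the NAP libraries, and 7 of the 10 were detected in every library. Single markers differed more than the sum, in either direction: Sis averaged 27.8 CPM in the controls and 110 CPM in the NAP libraries, and Slc10a2 17.0 and 55.4 CPM. Alpi averaged 179 and 134 CPM and Apoa1 7.76 and 3.99 CPM, the other way. Of the 8 that entered the differential test, 5 had positive and 3 negative fold changes. An unadjusted p under 0.05 in edgeR was found for 2 of them, where 23.6% of all tested genes had one. Of the 10 colonocyte markers 2 had positive and 8 negative fold changes, and 1 was called higher at an adjusted p under 0.05 in edgeR. All 7 tested stem cell markers had negative fold changes, and none was called. Among all tested genes 55.3% had negative fold changes and 1.05% were called higher. Markers of fibroblasts, immune cells, endothelium and neurons or glia summed to at most 25 CPM in any library. Counts of the mitochondrial chromosome made up 2.74 to 4.78% of the control libraries and 5.17 to 8.08% of the NAP libraries. The part played by these differences in the results below was not tested.

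Peptide transporter Slc15a1, proline transporter Slc6a7 and glutamate transporter Slc1a1 rose with NAP, by 3.53-fold, 3.55-fold and 2.55-fold. No transporter gene fell past the threshold, a Benjamini-Hochberg adjusted p under 0.05 over all 14840 genes in edgeR's quasi-likelihood test. The 3 genes that rose were 8.33% of the 36 tested, where 1.05% of all tested genes were called higher and 1.07% were called lower. The members were chosen with earlier results of these data known, and Slc15a1 and Slc6a7 were named in the rule. These shares therefore describe the list and are not a test of it. At an unadjusted p under 0.05 stood 13 of the 36 genes, 36.1%, against 23.6% of all genes, with 7 of them higher and 6 lower. Every NAP library exceeded every control for 3 transporter genes, Slc15a1, Slc1a1 and Slc38a6, where 2.14% of all genes had this order, and for none did every NAP library lie below every control, where 2.57% of all genes did. Across the 36 genes the log2 fold change was positive for 19 and negative for 17, with a median of 0.14, while all tested genes had a median of -0.07.

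Whether these 3 genes passed the adjusted threshold depended on single libraries. Without NAP 1 or NAP 3 all 3 genes were called, without control 3 Slc1a1 and Slc6a7 were, and without control 4 Slc15a1 alone was. Leaving out control 1, control 2, control 5, NAP 2, NAP 4, NAP 5 or NAP 6 ended all 3 calls, with adjusted p of at most 0.116 for Slc15a1 and Slc6a7 and 0.118 for Slc1a1 in edgeR. The log2 fold changes stayed between 1.59 and 2.12 for Slc15a1, 1.54 and 2.13 for Slc6a7, and 1.16 and 1.54 for Slc1a1 over the 11 omissions. Their unadjusted p in edgeR was at most 0.0017, 0.0016 and 0.0020 in the same order. The adjusted p also depends on all other genes, and the number of genes called varied widely between the omissions, as given below. With a trend on the GC content of the gene removed, none of the 36 genes was called, and Slc15a1, Slc1a1 and Slc6a7 were at 1.70, 1.34 and 2.38 with adjusted p of 0.0753, 0.0656 and 0.0573 in edgeR. DESeq2 called 7 of the 36 genes, adding Slc36a1, Slc38a6 and Slc7a8 as higher and Slc3a2 as lower, while it called 1656 genes in all against 315 in edgeR. The 2 tools filtered low counts differently.

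**Figure D1:**
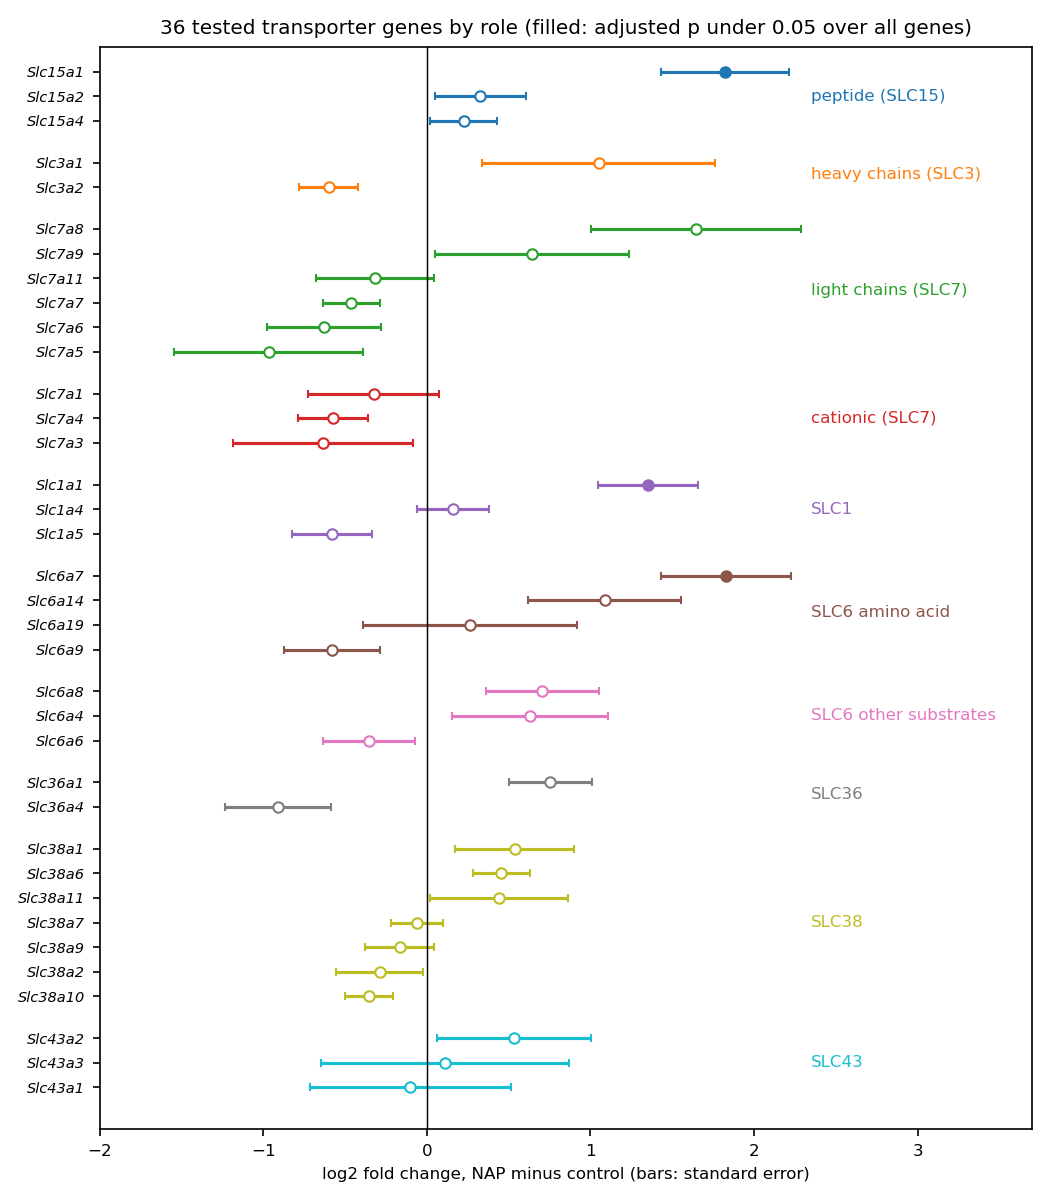
Log2 fold change, NAP minus control, of the 36 tested transporter genes from edgeR, grouped by role; points are estimates, bars are 1 standard error and filled points have an adjusted p under 0.05. The 3 filled points, Slc15a1, Slc6a7 and Slc1a1, lie between 1.35 and 1.83, and the lowest estimate is that of Slc7a5 at -0.97.

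The amount of transporter RNA differed widely between the genes. On the deposited FPKM scale, which divides by gene length so that levels of different genes can be compared, and by a library factor of 0.87 to 1.28 times the total count, the creatine transporter Slc6a8 had the highest mean over the 11 libraries at 122 FPKM, followed by Slc3a1 at 67.6, Slc6a14 at 56.3 and Slc38a2 at 51.4 FPKM. Slc15a1 came in eighth place with 26.9 FPKM, Slc3a2 had 11.1, Slc6a7 3.00 and Slc1a1 1.40 FPKM. At the low end were Slc43a3 with 0.20, Slc7a3 with 0.18, Slc43a1 with 0.16 and Slc7a15 with 0.14 FPKM. Neighbours in this order overlapped over libraries: Slc3a1 had 42.6 ± 38.3 FPKM in the controls (SD, n = 5) and 88.4 ± 54.0 in the NAP libraries (SD, n = 6). All 37 genes together took 0.260 ± 0.0225% of the counts in the controls (SD, n = 5) and 0.302 ± 0.0321% in the NAP libraries (SD, n = 6), with ranges of 0.237 to 0.294% and 0.264 to 0.353% that overlap.

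**Figure D2:**
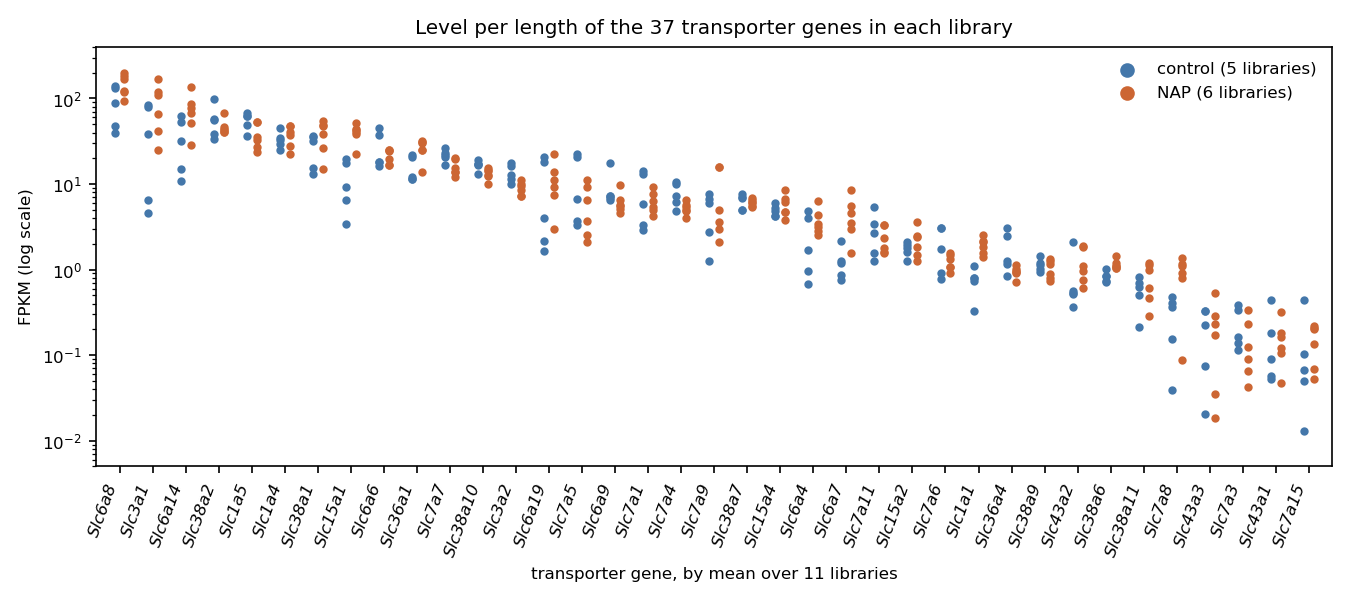
FPKM of the 37 transporter genes in each of the 11 libraries on a log axis, ordered by their mean, with controls and NAP libraries in different colours. The means run from 122 FPKM for Slc6a8 to 0.14 FPKM for Slc7a15, and for most genes the points of both groups are mixed.

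Promoter sequence is shown for 4 genes: Slc15a1 and Slc1a1, which rose, the heavy chain Slc3a2, named in the rule, and its cystine-exchanging light chain Slc7a11. Of these, Slc7a11 carries the element that links transporters to amino acid shortage. No promoter window was matched for Slc6a7, which also rose. Each line gives the 250 bases before the annotated start, 5′ to 3′ on the strand of the gene, from RefSeq on GRCm38.p6, at chr14:121505255-121505504 (minus), chr19:28834885-28835134 (plus), chr19:8713898-8714147 (minus) and chr3:50443614-50443863 (minus) in the order of the lines. Capitals mark matches to the 4 motifs searched on both strands, TGATGNAA (the C/EBP-ATF response element bound by ATF4), TTTATG (CDX2), GGGCGG (Sp1) and CACGTG (E-box), and N is any base.
Slc15a1: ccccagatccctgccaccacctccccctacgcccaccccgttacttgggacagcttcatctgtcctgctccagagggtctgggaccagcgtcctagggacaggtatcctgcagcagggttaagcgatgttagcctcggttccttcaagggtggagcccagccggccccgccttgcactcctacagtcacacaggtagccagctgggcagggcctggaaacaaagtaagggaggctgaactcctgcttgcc
Slc1a1: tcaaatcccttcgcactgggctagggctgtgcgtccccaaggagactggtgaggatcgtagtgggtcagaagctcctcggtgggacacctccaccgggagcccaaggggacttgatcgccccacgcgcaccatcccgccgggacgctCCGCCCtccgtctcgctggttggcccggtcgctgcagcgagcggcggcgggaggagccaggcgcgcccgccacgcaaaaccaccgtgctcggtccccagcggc
Slc3a2: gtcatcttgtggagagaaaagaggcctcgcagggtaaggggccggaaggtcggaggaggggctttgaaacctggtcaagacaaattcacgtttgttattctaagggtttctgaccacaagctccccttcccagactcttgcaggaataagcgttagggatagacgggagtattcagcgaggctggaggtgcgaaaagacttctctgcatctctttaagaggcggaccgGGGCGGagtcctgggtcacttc
Slc7a11: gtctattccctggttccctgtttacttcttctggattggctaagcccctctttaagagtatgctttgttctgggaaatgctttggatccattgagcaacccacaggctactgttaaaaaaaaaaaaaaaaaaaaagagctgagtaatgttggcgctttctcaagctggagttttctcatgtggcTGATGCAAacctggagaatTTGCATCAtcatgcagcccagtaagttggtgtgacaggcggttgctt

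The stretch of Slc15a1 held none of these motifs and 62% GC, and that of Slc1a1, with 70.4% GC and 27 CpG sites, held 1 Sp1 match on the minus strand 103 bases before the start. Slc7a11 had 2 C/EBP-ATF matches facing each other, 66 and 47 bases before its start, in a stretch of 43.2% GC with 2 CpG sites. Windows of 300 bases around the start were matched for 28 of the 37 genes, 39 windows in all. The C/EBP-ATF element stood in 4 windows of 3 genes, Slc1a4, Slc7a7 and Slc7a11, 10.3% of the 39 windows against 3.97% of all 32851 promoter windows. Windows of 1 gene can overlap, as those of Slc7a7 with this element do, so these shares count windows and not genes. Sp1 matches stood in 59.0% of the windows against 35.7%, the E-box in 7.69% against 7.15% and the CDX2 element in 2.56% against 11.9%. The median GC content of the windows was 60% against 52.7%. A match is a run of letters and does not show that a factor binds there.

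Peptide transporters were represented by 3 genes with positive fold changes, of which 1 passed the test. Slc15a1, the proton-coupled carrier of di- and tripeptides at the luminal membrane, lies on the minus strand of chromosome 14 at 121697033 to 121742666 on GRCm39. On the CPM scale with TMM normalization, used for all gene levels below unless FPKM is named, it was at 11.1, 62.4, 30.2, 21.2 and 57.1 CPM in controls 1 to 5, and the NAP libraries had a lowest, median and highest value of 73.3, 133 and 167 CPM. The groups did not overlap, controls 2 and 5 were the highest controls, and NAP 6 was the lowest NAP library, well below the other NAP libraries. The means were 36.4 ± 22.5 CPM (SD, n = 5) and 128 ± 31.0 CPM (SD, n = 6), a log2 fold change of 1.82 ± 0.39 (SE) with an edgeR adjusted p of 0.0420. Without controls 2 and 5 the log2 fold change was 2.65 with an adjusted p of 0.0180 in edgeR. Without controls 1 and 4 it was 1.40 with an adjusted p of 0.0233 in edgeR. Slc15a1 was thus called in both of these sets, which were chosen after the data were seen. Both sets called more genes in all than the full set of libraries did. Leaving out control 1, control 2 or control 5 alone ended the call of Slc15a1. In bulk RNA a difference in the number of expressing cells and a difference in the RNA of each cell cannot be told apart, here and for every gene that follows.

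Slc15a2, a peptide carrier best known from the kidney, was at 9.73, 8.10, 5.93, 8.93 and 7.38 CPM in the controls and at 5.77, 9.81 and 16.5 CPM as lowest, median and highest of the NAP libraries. These ranges overlapped, and its log2 fold change of 0.33 ± 0.28 (SE) had an edgeR adjusted p of 0.50. The lysosomal peptide and histidine carrier Slc15a4 averaged 41.7 ± 5.90 CPM in the controls (SD, n = 5) and 48.8 ± 14.5 CPM in the NAP libraries (SD, n = 6), with an edgeR adjusted p of 0.523. On the per-length scale Slc15a1 had 11.3 ± 7.04 FPKM in the controls (SD, n = 5) and 39.9 ± 9.74 FPKM in the NAP libraries (SD, n = 6).

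**Figure D3:**
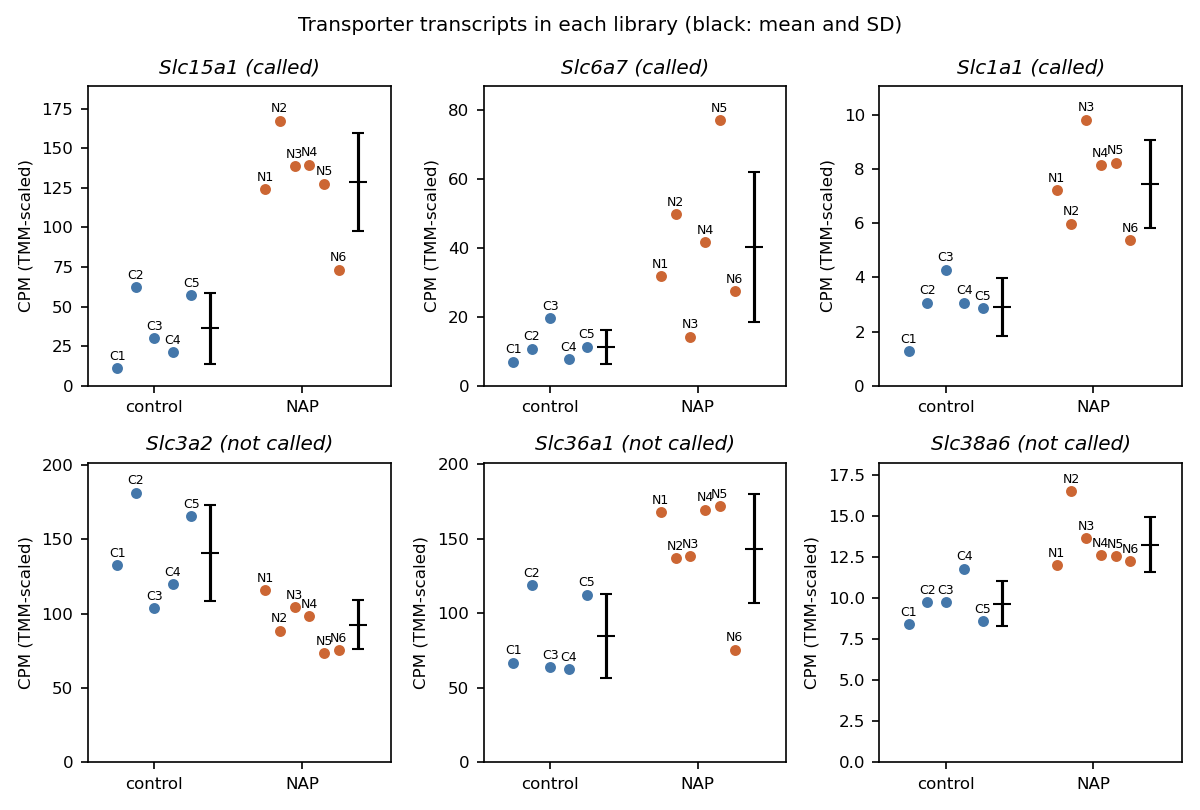
TMM-scaled CPM of Slc15a1, Slc6a7, Slc1a1, Slc3a2, Slc36a1 and Slc38a6 in each library; black marks are the group mean and SD (5 controls, 6 NAP libraries). The groups are apart for Slc15a1, Slc1a1 and Slc38a6, while for Slc6a7 the NAP 3 library at 14.3 lies among the controls.

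Among the proline, glycine and broad-range carriers of the SLC6 family, 1 of 4 genes rose and none fell. Slc6a7, a sodium- and chloride-coupled proline transporter known mainly from the brain, was at 7.05, 10.8, 19.6, 7.79 and 11.4 CPM in the controls and at 14.3, 36.7 and 77.0 CPM as lowest, median and highest of the NAP libraries. NAP 3, the lowest, lay among the controls, and the other NAP libraries were above all of them. The log2 fold change was 1.83 ± 0.40 (SE), from 11.3 ± 5.01 CPM (SD, n = 5) to 40.3 ± 21.7 CPM (SD, n = 6), with an edgeR adjusted p of 0.0420. On the per-length scale the rise was from 1.24 ± 0.544 to 4.46 ± 2.43 FPKM (SD, n = 5 and 6). The call was lost in limma on voom weights, with an adjusted p of 0.0539, and in edgeR without controls 2 and 5 or without controls 1 and 4, at log2 fold changes of 1.83 and 1.55 with adjusted p of 0.0545 and 0.0538.

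Slc6a14, which takes up neutral and cationic amino acids with sodium and chloride, was at 39.3, 187, 116, 53.5 and 222 CPM in the controls and at 102, 254 and 475 CPM as lowest, median and highest of the NAP libraries. Controls 5 and 2 lay inside the NAP range and controls 1 and 4 below it. Its log2 fold change was 1.09 ± 0.47 (SE) with an edgeR adjusted p of 0.184. Slc6a19, the sodium-coupled carrier of neutral amino acids in the brush border, was at 17.2, 76.1, 9.17, 6.92 and 86.2 CPM in the controls and at 12.5, 42.8 and 94.5 CPM in the NAP libraries. Here controls 2 and 5 were near the top of the NAP range and the other controls near or below its bottom, and the log2 fold change of 0.27 ± 0.66 (SE) had an edgeR adjusted p of 0.832. A gene on the opposite strand, Slc6a19os, overlaps it, and reads of both could be mixed, as no source used here gives the strand setting of the counting.

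The glycine transporter Slc6a9 had a negative fold change. It was at 76.6, 30.7, 30.9, 29.0 and 27.7 CPM in the controls, and the NAP libraries had a lowest, median and highest value of 19.2, 23.6 and 41.0 CPM. Of the 6 NAP libraries 5 lay below all controls and NAP 1 lay among them, and control 1 was far above the rest. Its log2 fold change of -0.58 ± 0.29 (SE) had an edgeR adjusted p of 0.250.

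SLC6 carriers of other solutes gave no call among 3 genes. Slc6a8, which imports creatine, was at 164, 548, 371, 195 and 582 CPM in the controls and at 391, 604 and 817 CPM as lowest, median and highest of the NAP libraries. Controls 2 and 5 lay inside the NAP range and the other controls below it, and the log2 fold change of 0.71 ± 0.34 (SE) had an edgeR adjusted p of 0.233. The taurine transporter Slc6a6 was at 343, 121, 136, 274 and 132 CPM in the controls, with controls 1 and 4 on top, and at 123 to 185 CPM in the NAP libraries, with an edgeR adjusted p of 0.471. The serotonin transporter Slc6a4 averaged 6.95 ± 5.32 CPM in the controls (SD, n = 5) and 10.7 ± 4.12 CPM in the NAP libraries (SD, n = 6), with an edgeR adjusted p of 0.445.

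In the SLC1 family 1 of 3 genes rose. Slc1a1, the high-affinity glutamate and aspartate transporter of epithelia and neurons, lies on the plus strand of chromosome 19 at 28812535 to 28891360 on GRCm39, where the predicted genes Gm5822 and Gm52404 overlap it on the other strand. It was at 1.29, 3.07, 4.28, 3.07 and 2.86 CPM in the controls and at 5.37, 7.67 and 9.81 CPM as lowest, median and highest of the NAP libraries. The groups did not overlap, and neither pair of controls that stood apart in the cell markers was on top here, since control 3 was the highest control. The log2 fold change was 1.35 ± 0.30 (SE), from 2.92 ± 1.07 CPM (SD, n = 5) to 7.46 ± 1.62 CPM (SD, n = 6), with an edgeR adjusted p of 0.0443. Without controls 2 and 5 it was 1.39 with an adjusted p of 0.0525, which ends the call, and without controls 1 and 4 it was 1.15 with an adjusted p of 0.0362 in edgeR.

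Its relatives had smaller fold changes. Slc1a5, the exchanger through which many dividing cells take up glutamine, was at 201, 144, 187, 182 and 108 CPM in the controls and at 69.0, 99.6 and 157 CPM as lowest, median and highest of the NAP libraries. NAP 2, NAP 4, NAP 5 and NAP 1 lay below all controls while NAP 3 and NAP 6 lay among them, and the log2 fold change of -0.58 ± 0.25 (SE) had an unadjusted p of 0.0345 and an adjusted p of 0.177 in edgeR. The serine and alanine exchanger Slc1a4 averaged 135 ± 30.8 CPM in the controls (SD, n = 5) and 151 ± 40.7 CPM in the NAP libraries (SD, n = 6), with an edgeR adjusted p of 0.691.

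None of the genes for heterodimeric transporters passed the test, and the heavy chains had fold changes of opposite sign. Slc3a2, the CD98 heavy chain that carries most light chains to the basolateral membrane, was at 132, 181, 104, 120 and 165 CPM in the controls and at 73.4, 93.4 and 116 CPM as lowest, median and highest of the NAP libraries. Of the 6 NAP libraries 4 lay below all controls, and the means were 140 ± 32.2 CPM (SD, n = 5) and 92.6 ± 16.6 CPM (SD, n = 6). The log2 fold change was -0.60 ± 0.18 (SE) with an edgeR adjusted p of 0.0815, which missed the threshold, whereas DESeq2 gave an adjusted p of 0.0358 at -0.58. Slc3a1, the heavy chain of the luminal carrier of cystine and cationic amino acids, was at 11.2, 187, 92.1, 15.4 and 201 CPM in the controls and at 59.4, 208 and 398 CPM as lowest, median and highest of the NAP libraries. Controls 2 and 5 lay inside the NAP range and controls 1 and 4 well below it, and the log2 fold change of 1.05 ± 0.71 (SE) had an edgeR adjusted p of 0.391. Without controls 2 and 5 its log2 fold change was 2.42 and without controls 1 and 4 it was 0.42. Prepl overlaps Slc3a1 on the other strand.

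Of the 7 light chains that met the rule 6 were tested, with 2 positive and 4 negative fold changes and a median log2 fold change of -0.39. Slc7a9, the partner of Slc3a1, was at 3.04, 15.6, 6.66, 14.2 and 18 CPM in the controls and at 4.96, 10.2 and 37.8 CPM as lowest, median and highest of the NAP libraries. NAP 1 and NAP 3 were far above all other libraries and the rest of the NAP group lay among the controls, with an edgeR adjusted p of 0.536. Slc7a9 and Slc3a1 were thus high in different NAP libraries, since Slc3a1 was lowest in NAP 1 and NAP 3.

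The partners of Slc3a2 had fold changes of either sign. Slc7a8, which exchanges neutral amino acids at the basolateral side, was at 0.323, 3.77, 2.99, 1.24 and 3.29 CPM in the controls and at 0.707, 7.99 and 11 CPM as lowest, median and highest of the NAP libraries. Apart from NAP 6, which lay among the controls, every NAP library was above all controls, and the log2 fold change of 1.65 ± 0.64 (SE) had an unadjusted p of 0.0237 and an adjusted p of 0.146 in edgeR. Slc7a7, which exports cationic amino acids in exchange for neutral ones, was at 93.0, 75.5, 58.8, 71.7 and 81.3 CPM in the controls and at 41.6, 50.7 and 71.8 CPM as lowest, median and highest of the NAP libraries. Its groups overlapped at controls 3 and 4, and the log2 fold change of -0.46 ± 0.18 (SE) had an unadjusted p of 0.0216 and an adjusted p of 0.140 in edgeR. Oxa1l overlaps Slc7a7 on the other strand.

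Slc7a5, the large neutral amino acid exchanger that supplies leucine to growing cells, was at 77.3, 13.5, 24.2, 81.5 and 12.0 CPM in the controls and at 7.60, 18.5 and 40.3 CPM as lowest, median and highest of the NAP libraries. Controls 1 and 4 were above every other library, and controls 2 and 5 lay low in the NAP range. Its log2 fold change was -0.97 ± 0.58 (SE) with an edgeR adjusted p of 0.332, and it was -1.48 without controls 2 and 5 and 0.39 without controls 1 and 4. The related Slc7a6 also had controls 1 and 4 on top and controls 2 and 5 at the bottom of the group, with 43.3, 12.7, 24.6, 43.1 and 10.9 CPM, against 12.7 to 22.2 CPM in the NAP libraries, and an edgeR adjusted p of 0.294. The cystine and glutamate exchanger Slc7a11, which feeds glutathione synthesis, averaged 27.9 ± 16.3 CPM in the controls (SD, n = 5) and 22.4 ± 8.00 CPM in the NAP libraries (SD, n = 6), with an edgeR adjusted p of 0.626. Slc7a15 was too low for the test, with 1, 5, 4, 5 and 21 counts in the controls and 3 to 13 counts in the NAP libraries.

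The 3 genes of the cationic amino acid transporter branch had negative fold changes and none passed the test. Slc7a1, the main carrier of arginine and lysine into dividing cells, was at 111, 25.4, 45, 98.6 and 21.8 CPM in the controls and at 31.7, 45.2 and 71.0 CPM as lowest, median and highest of the NAP libraries. Controls 1 and 4 lay above the NAP range and controls 2 and 5 below it, and the log2 fold change of -0.33 had an edgeR adjusted p of 0.655. Slc7a4, a relative for which no transport role is stated here, was at 20.9, 44.4, 25.9, 30.3 and 42.1 CPM in the controls and at 16.7, 21.7 and 27.4 CPM as lowest, median and highest of the NAP libraries. Controls 2, 4 and 5 lay above every NAP library and controls 1 and 3 among them, and its log2 fold change of -0.57 ± 0.21 (SE) had an unadjusted p of 0.0182 and an adjusted p of 0.130 in edgeR. The arginine transporter Slc7a3 was low, with 4 to 48 counts over all libraries. It averaged 1.30 ± 0.716 CPM in the controls (SD, n = 5) and 0.836 ± 0.640 CPM in the NAP libraries (SD, n = 6). Snx12 overlaps it on the same strand.

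Both proton-coupled SLC36 genes had an unadjusted p under 0.05, in opposite directions, and neither passed the adjusted threshold. Slc36a1, which moves glycine, alanine and proline across the brush border and out of lysosomes, was at 66.9, 119, 63.9, 62.6 and 112 CPM in the controls and at 75.7, 153 and 172 CPM as lowest, median and highest of the NAP libraries. NAP 6 lay among the controls and the other NAP libraries lay above all of them, and the log2 fold change of 0.76 ± 0.25 (SE) had an unadjusted p of 0.0101 and an adjusted p of 0.101 in edgeR. Slc36a4, an intracellular carrier of proline and tryptophan, was at 18.3, 6.92, 7.49, 14.8 and 4.94 CPM in the controls and at 4.25, 5.61 and 6.72 CPM as lowest, median and highest of the NAP libraries. Controls 1 to 4 lay above every NAP library and control 5 lay inside their range, and the log2 fold change of -0.91 ± 0.32 (SE) had an unadjusted p of 0.0150 and an adjusted p of 0.119 in edgeR. Without controls 1 and 4 its log2 fold change was -0.17.

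**Figure D4:**
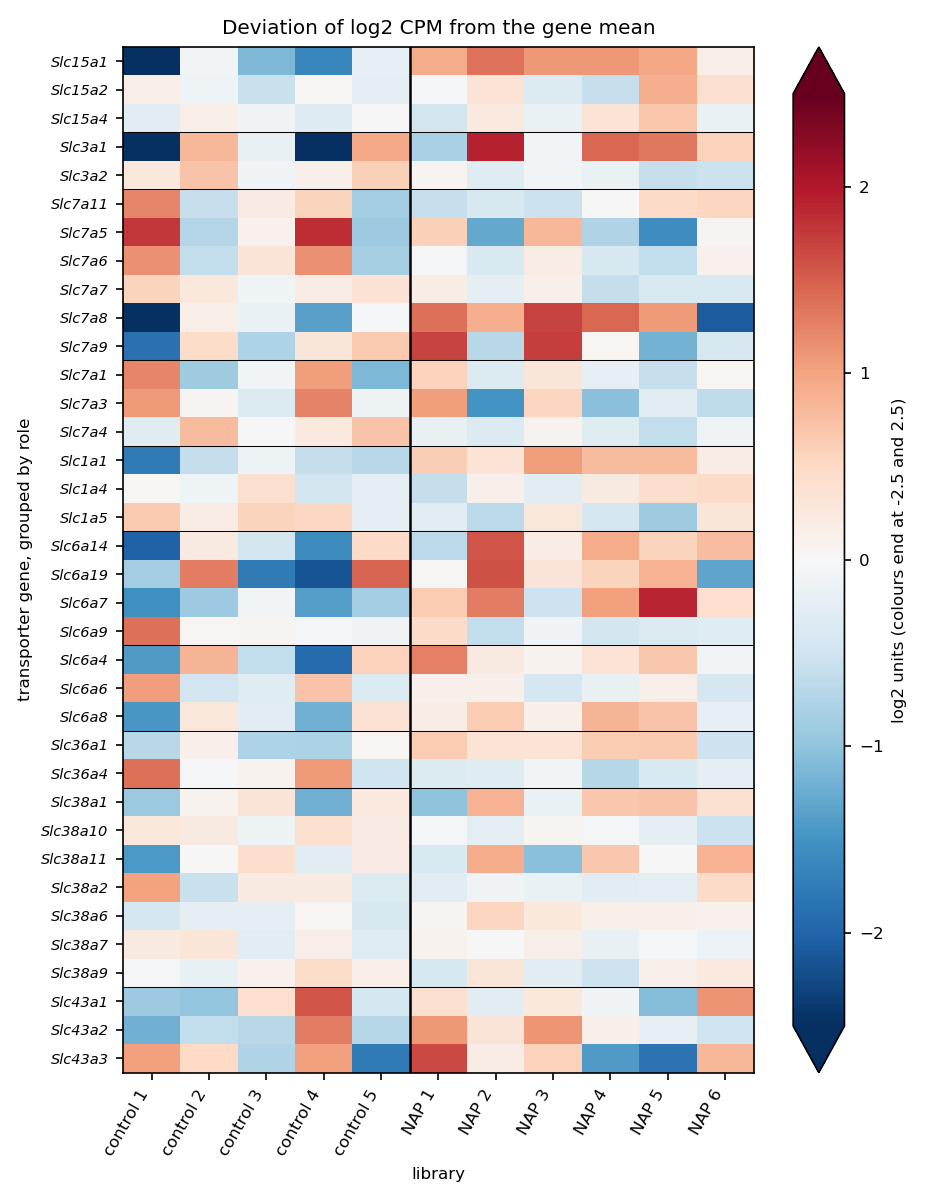
Heat map of the log2 CPM of each tested transporter gene (rows, grouped by role) minus its mean over the 11 libraries (columns); colours end at 2.5 above and below the mean. Controls 2 and 5 share a pattern, controls 1 and 4 share another, and Slc15a1, Slc1a1 and Slc6a7 are below their mean in all 5 controls.

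In the SLC38 family, 3 of 7 fold changes were positive and 4 negative, with no call. Slc38a6, whose substrates are less well known, was at 8.44, 9.78, 9.78, 11.8 and 8.59 CPM in the controls and at 12.0, 12.6 and 16.5 CPM as lowest, median and highest of the NAP libraries. The groups did not overlap, but the distance from control 4 to NAP 1 was small, and the log2 fold change of 0.45 ± 0.17 (SE), a 1.37-fold difference, had an unadjusted p of 0.0219 and an adjusted p of 0.141 in edgeR. Trmt5 overlaps it on the other strand. Slc38a10 was at 99.8, 97.0, 76.0, 109 and 95.5 CPM in the controls and at 57.2, 76.0 and 87 CPM as lowest, median and highest of the NAP libraries, with only control 3 inside the NAP range, a log2 fold change of -0.35 ± 0.15 (SE) and an edgeR adjusted p of 0.166.

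The glutamine importers of the family had the highest CPM among these 7 genes. Slc38a1 was at 192, 386, 453, 158 and 429 CPM in the controls and at 182, 526 and 666 CPM as lowest, median and highest of the NAP libraries. Slc38a2, which is induced when amino acids run short, was at 477, 160, 276, 278 and 187 CPM in the controls and at 194, 207 and 329 CPM as lowest, median and highest of the NAP libraries. Both groups overlapped for either gene, with edgeR adjusted p of 0.391 and 0.532. The lysosomal arginine sensor Slc38a9 averaged 13.4 ± 2.32 CPM in the controls (SD, n = 5) and 12.0 ± 2.90 CPM in the NAP libraries (SD, n = 6), with an edgeR adjusted p of 0.663. Slc38a7, which exports glutamine from lysosomes, averaged 23.2 ± 4.54 and 22.3 ± 2.05 CPM (SD, n = 5 and 6), with an edgeR adjusted p of 0.848, and Slc38a11 averaged 3.56 ± 1.45 and 4.83 ± 2.32 CPM (SD, n = 5 and 6), with an edgeR adjusted p of 0.548.

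The SLC43 genes, which include sodium-independent exit routes for neutral amino acids, gave no call among 3. Slc43a2 was at 3.60, 5.45, 5.19, 20.5 and 5.08 CPM in the controls and at 5.89, 9.92 and 18.2 CPM as lowest, median and highest of the NAP libraries. Control 4 was the highest of all 11 libraries and the other controls were the lowest, and the log2 fold change of 0.53 had an edgeR adjusted p of 0.514. Without control 4 its log2 fold change was 1.26 with an edgeR adjusted p of 0.0650. Slc43a1 and Slc43a3 averaged under 1 CPM in both groups.

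The spread between controls was wide for these genes. The median coefficient of variation over the 5 controls was 51.2% for the 36 genes against 34.3% for all tested genes, and over the 6 NAP libraries it was 30.3% against 26.1%. Controls 2 and 5 were the highest pair of controls for 12 of the 36 genes, 33.3% against 33.4% of all genes, and controls 1 and 4 for 11, 30.6% against 29.7%. The first set was Slc3a1, Slc3a2, Slc6a4, Slc6a8, Slc6a14, Slc6a19, Slc7a4, Slc7a8, Slc7a9, Slc15a1, Slc15a4 and Slc36a1, and the second Slc6a6, Slc7a1, Slc7a3, Slc7a5, Slc7a6, Slc7a11, Slc15a2, Slc36a4, Slc38a2, Slc38a10 and Slc43a3. Leaving out controls 2 and 5, a choice made after the data were seen, gave 8 calls among the 36 genes, with Slc15a1, Slc36a1, Slc6a14, Slc6a19, Slc6a8 and Slc6a4 higher and Slc7a6 and Slc36a4 lower, while 824 genes were called in all, and 35 of 36 fold changes kept their sign. Leaving out controls 1 and 4 gave 3 calls, with Slc15a1 and Slc1a1 higher and Slc7a4 lower, while 1315 genes were called in all, and 26 of 36 fold changes kept their sign. Only Slc15a1 was called in both of these reduced sets and with all 11 libraries.

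**Figure D5:**
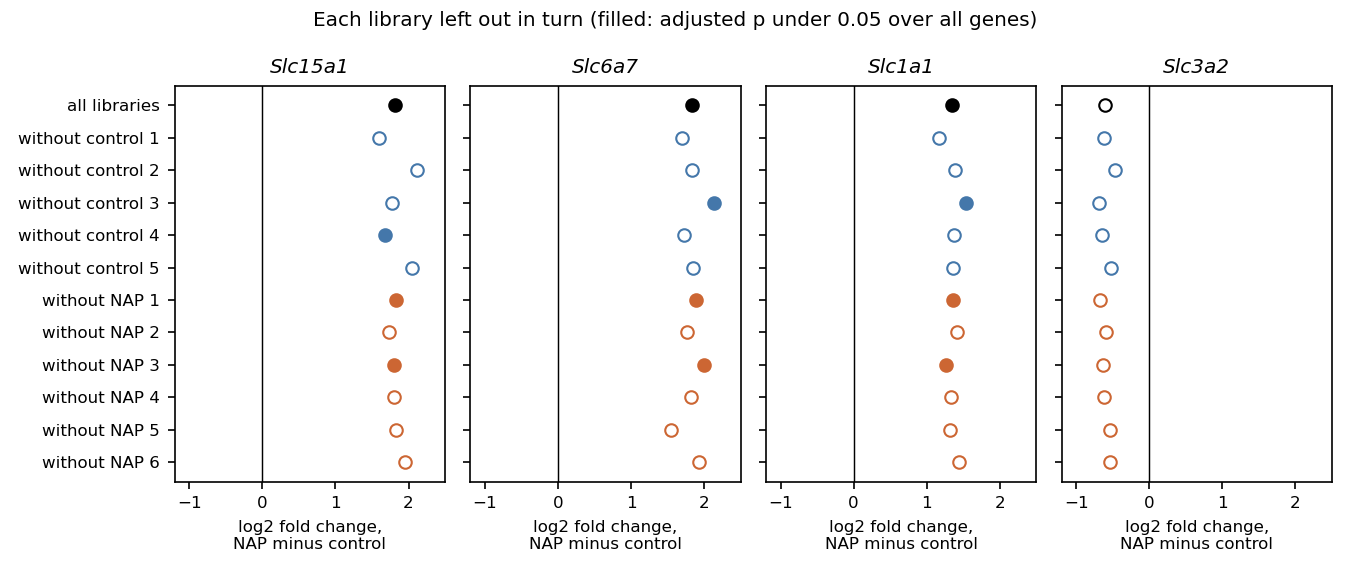
Log2 fold change, NAP minus control, of Slc15a1, Slc6a7, Slc1a1 and Slc3a2 from edgeR with all libraries and with each library left out. Filled points have an adjusted p under 0.05 over all genes. Estimates keep their sign in each of the 11 omissions, from 1.59 to 2.12 for Slc15a1 and from -0.69 to -0.47 for Slc3a2.

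The GC content of the gene, taken as the median over its transcripts in the GENCODE annotation of GRCm38, was 47.6% for Slc15a1, 49.9% for Slc1a1 and 61.4% for Slc6a7, and 55.4% for Slc3a2. Genes called higher had a median of 46.4% GC and a median length of 5238 bases, genes called lower 57.8% and 2057 bases, and the 36 transporter genes 52.1% and 4565 bases. All tested genes had medians of 50.8% GC and 3466 bases. The part played by GC content or length in the calls was not tested.

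Genes that work with the transporters changed in few cases. Over all tested genes, as a base for the counts that follow, 44.7% of fold changes were positive and 55.3% negative. Of 12 tested genes for partners and the sodium and proton gradients, none passed the test, 8 had positive and 4 negative fold changes, and the median log2 fold change was 0.38. Arl6ip5, which holds back Slc1a1 in the endoplasmic reticulum, averaged 53.3 ± 6.24 CPM in the controls (SD, n = 5) and 74.4 ± 8.39 CPM in the NAP libraries (SD, n = 6), with an edgeR adjusted p of 0.0664. Slc9a3, the sodium and proton exchanger that keeps up the proton gradient used by Slc15a1, averaged 111 ± 87.9 and 190 ± 56.4 CPM (SD, n = 5 and 6), with an edgeR adjusted p of 0.360. Among 6 tested amino acid transporters with other names, none passed the test. The vesicular glutamate transporter Slc17a8 averaged 0.638 ± 0.397 and 1.89 ± 0.539 CPM (SD, n = 5 and 6), with an edgeR adjusted p of 0.0660, and the lysosomal exporter Slc66a1 averaged 18.5 ± 3.68 and 10.3 ± 4.21 CPM (SD, n = 5 and 6), with an edgeR adjusted p of 0.0947.

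Of 20 peptidases that release or finish the digestion of peptides, none passed the test, 8 had positive and 12 negative fold changes, and 8 had an unadjusted p under 0.05, where 23.6% of all tested genes did. Dpp4, a dipeptidyl peptidase of the brush border that cuts after proline, averaged 10.4 ± 6.32 CPM in the controls (SD, n = 5) and 35.2 ± 19.9 CPM in the NAP libraries (SD, n = 6), a log2 fold change of 1.77 with an edgeR adjusted p of 0.0757. Pepd, the cytosolic enzyme that splits dipeptides ending in proline, averaged 47.0 ± 5.43 and 29.5 ± 6.71 CPM (SD, n = 5 and 6), with an edgeR adjusted p of 0.0566, and the cytosolic aminopeptidase Lap3 averaged 83.6 ± 14.4 and 58.1 ± 4.5 CPM (SD, n = 5 and 6), with an edgeR adjusted p of 0.0600. Both had negative fold changes, and for Lap3 every NAP library lay below every control.

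Of 21 tested genes of the amino acid starvation response, which is driven by ATF4 and includes enzymes that make amino acids when supply fails, 2 fell and none rose, with 3 positive and 18 negative fold changes. Of all tested genes 1.07% were called lower and 55.3% had negative fold changes. Shmt2, the mitochondrial enzyme that turns serine into glycine, was at 151, 145, 130, 99.8 and 124 CPM in the controls and averaged 74.7 ± 13.5 CPM in the NAP libraries (SD, n = 6), a log2 fold change of -0.80 with an edgeR adjusted p of 0.0405. The transcription factor Cebpb, a dimer partner of ATF4, was at 36.3, 33.0, 31.8, 23.2 and 17.5 CPM in the controls and averaged 12.3 ± 3.62 CPM in the NAP libraries (SD, n = 6), a log2 fold change of -1.21 with an edgeR adjusted p of 0.0417. All NAP libraries were below all controls for both genes. Atf4 itself averaged 209 ± 26.6 and 192 ± 28.3 CPM (SD, n = 5 and 6), with an edgeR adjusted p of 0.653. None of the 34 tested genes of amino acid sensing by mTORC1 passed the test, with 14 positive and 20 negative fold changes and 9 genes at an unadjusted p under 0.05, close to the 55.3% negative and 23.6% under 0.05 of all tested genes. The lysosomal transcription factor Tfeb was the nearest, at 28.8 ± 5.79 CPM in the controls (SD, n = 5) and 16.5 ± 4.39 CPM in the NAP libraries (SD, n = 6), with an edgeR adjusted p of 0.0598.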

How the data were processed

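RNA-seq of 5 control and 6 NAP organoid libraries was analysed. Trimmomatic 0.39, HISAT2 2.2.1, featureCounts of Subread 2.0.8 and the build GRCm39 were used, per the submitters' processing notes. No source used here gives the strand setting. The authors deposited raw counts per gene and FPKM values, per the file headers. No columns of other samples were used. The limit given for a count of 0 covers counting error only.

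Counts were tested with edgeR 4.0.16 in R 4.3.3 (TMM, filterByExpr, robust quasi-likelihood fit, 11 libraries, group as the only term) with Benjamini-Hochberg adjustment over 14840 genes and a threshold of 0.05. FPKM values were used for levels between genes. Alternatives were other scalings, no filter and a filter of 10 counts in 5 libraries, DESeq2 1.42.0, limma 3.58.1 on voom weights and on log2(FPKM + 1) or log2(FPKM + 0.1), a replicate block, a threshold of 0.1 and each library left out; leaving out pairs of controls and removing trends on GC content and length were added after the data were seen. The members, gene lists and tests were chosen with earlier results of these data known. Named were Slc15a1, Slc6a7 and Slc3a2, every called gene, and in each role the 2 smallest p-values and the highest mean FPKM; other members are described by their values and were chosen after these were seen. Scripts were tested on simulated data. Cell type marker sums were 3040 to 8671 CPM in the controls and 1919 to 4754 CPM in the NAP libraries for goblet cells, 234 to 518 and 255 to 439 CPM for enteroendocrine cells, 1.59 to 3.27 and 1.35 to 4.48 CPM for tuft cells with Il25 at 0, and 39.9 to 478 and 43.8 to 236 CPM for Paneth cells.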

Additional observations from a re-analysis of the deposited data

Results flagged for a closer look

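Of 44 groups of libraries, 2 for each of 22 named genes, 5 held 1 library far from the others of its group; chance alone marks about 1 in 20 groups. NAP 6 was that library for 4 genes. It had 73.3 CPM of Slc15a1, where the other NAP libraries had 124 to 167 CPM, and 75.7 CPM of Slc36a1, where they had 137 to 172 CPM. For Slc7a8 it had 0.707 CPM against 6.34 to 11 CPM, and for Slc38a2 it had 329 CPM against 194 to 222 CPM. NAP 6 was thus nearer to the control mean than the other NAP libraries for the first 3 of these genes. For Slc38a2 the control mean was 276 CPM, so that NAP 6 lay above it and the other NAP libraries below it. Control 4 had 20.5 CPM of Slc43a2, where the other controls had 3.60 to 5.45 CPM.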

How the results depend on the processing

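With all libraries, edgeR called 315 genes, 3 of them transporters. For the 22 named genes, 461 of 525 fold changes under the alternatives that refit the model kept their direction and their side of the threshold, 41 lost and 10 gained a call and 13 changed sign; at an adjusted p of 0.1 Slc3a2 would be called as well. Transporter calls numbered 0 without the filter on low counts, 2 with limma voom, 2 on log2(FPKM + 1), 7 with DESeq2, 0 under the replicate block, 8 without controls 2 and 5, 0 with the GC trend removed and 0 with GC and length trends removed. At an unadjusted p under 0.05 there were 12 transporters without the filter, 12 under the block and 11 and 12 with the trends removed. Calls over all genes numbered 89, 303, 354, 1656, 0, 824, 43 and 26 in the same order of settings, 1480 at an adjusted p of 0.1 and 1315 without controls 1 and 4. These totals are not all over the same genes. The fits with trends removed kept the 12472 genes with a GC value, and the fit without the filter took every gene with a count. DESeq2 started from every gene with a count and applied its own filter. The causes of the differences were not tested. Leaving out 1 library gave 0 to 814 called genes and 0 to 3 called transporters, with 2614 to 3792 genes and 7 to 14 transporters at an unadjusted p under 0.05 in edgeR.

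Under the replicate block, Slc15a1, Slc1a1 and Slc6a7 had log2 fold changes of 2.19, 1.5 and 1.88 with adjusted p of 0.130, 0.135 and 0.138 in edgeR, and 2903 genes had an unadjusted p under 0.05. The labels do not say whether equal numbers mark paired libraries. Deviations of same-numbered libraries correlated at 0.42, 0.34, -0.07, -0.30 and 0.30, and 2 of 5 controls correlated best with their own number. Values this mixed cannot decide whether the numbers pair the libraries.

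Of all 36 tested transporters, 26 kept their sign without controls 1 and 4 and at least 33 of those tested did so in every other setting; the exceptions were Slc6a6, Slc6a19, Slc7a1, Slc7a3, Slc7a5, Slc7a6, Slc7a11, Slc38a2, Slc38a7, Slc38a10, Slc43a1 and Slc43a3, none called with all libraries. Among the named genes, leaving out 1 library gave log2 fold changes of -0.32 to 0.68 for Slc43a1, -0.41 to 0.0028 for Slc38a2 and -0.51 to 0.011 for Slc7a1. Slc43a1 was at 0.14 with voom, 0.056 on log2(FPKM + 0.1), 0.68 without control 4, 0.08 without NAP 5, 0.52 without controls 1 and 4, 0.027 with the GC trend removed and 0.0072 with both trends removed. Slc38a2 was at 0.0028 without control 1 and 0.15 without controls 1 and 4, and Slc7a1 at 0.011 and 0.67. Slc7a3 was at 0.13 without controls 1 and 4 and Slc38a10 at 0.0010 with the GC trend removed. Slc43a1 was not tested in 3 settings, where it failed the filter. Depth limits Slc43a1, Slc43a3 and Slc7a3, which averaged under 1.5 CPM in both groups.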

Other observations

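Enzymes that use the amino acids carried by these transporters gave no call among 14 tested genes, with 4 positive and 10 negative fold changes and 5 genes at an unadjusted p under 0.05, where all tested genes had 44.7% positive, 55.3% negative and 23.6% under 0.05. Got2, the mitochondrial aspartate aminotransferase, averaged 161 ± 20.0 CPM in the controls (SD, n = 5) and 106 ± 15.1 CPM in the NAP libraries (SD, n = 6), with an edgeR adjusted p of 0.0518. Gss, the last enzyme of glutathione synthesis, averaged 111 ± 37.5 and 70.2 ± 10.1 CPM (SD, n = 5 and 6), with an edgeR adjusted p of 0.0889.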
